A study of Mus musculus with 6 samples.

Results

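The genes described here are 7 Ly6 genes, Ly6a, Ly6c1, Ly6c2, Ly6d, Ly6e, Ly6h and Ly6k, in RNA from Lgr5-positive and Lgr5-negative mouse mammary cells. The members were taken by symbol, through the RefSeq transcript that the array design gives for a probe. Of the 7 genes, 6 had a probe and Ly6c2 had none, which left 8 probes out of 55681 non-control probes on the array. Ly6a, Ly6d, Ly6e and Ly6k had 1 probe each, and Ly6c1 and Ly6h had 2 each. All 8 probes were well above background in the sample channel on all 6 arrays, so the filter on dim probes removed no member that had a probe. The genes were chosen on the Lgr5-positive against Lgr5-negative log2 differences of these same arrays, so those differences are given as a description, with no test.

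The mice behind both groups were virgin C57/B6 animals with the genotype lgr5-egfp-ires-creert2, in which EGFP is expressed from the Lgr5 locus, and the cells were sorted from their mammary glands. Lgr5-positive cells were Lin-CD24+CD29hiGFP+ and Lgr5-negative cells were Lin-CD24+CD29hiGFP-, and each group had 3 arrays. Each array carried the sorted cells' RNA in Cy5 beside Universal Mouse Reference RNA in Cy3, pooled from 11 cell lines. The labels used here give no age, no number of mice behind a sample and no list of the markers behind Lin, and they do not say that replicates came from separate animals, so the spread between arrays may in part be technical. Values are log2 (Cy5/Cy3) after background correction and loess normalization, in a fixed dye assignment. A value of 0 lies on the array's own trend at that signal strength, and does not mark equal sample and reference RNA. Differences are Lgr5-positive minus Lgr5-negative.

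Ly6 proteins are small, cysteine-rich proteins that fold into finger-like loops, and most are held on the outer cell membrane by a glycosylphosphatidylinositol (GPI) anchor. They belong to a larger family with the urokinase receptor (uPAR) and CD59. Ly6a, better known as Sca-1, is used to sort stem and progenitor cells in blood and to separate luminal cell classes in the mammary gland, and endothelium and stroma carry it too. Several members, among them Ly6a, Ly6c and Ly6e, are induced by interferons in mouse cells.

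Basal markers, Itgb1 and Lgr5 were read as a check of the gate and the sort. The 8 basal mammary markers, keratins and contractile genes among them, averaged log2 ratios of 3.87 to 4.24 on the Lgr5-positive arrays, against 3.63 to 3.82 on the Lgr5-negative arrays. Within that list Trp63 was at only 0.06 in Lgr5-positive cells and -0.0029 in Lgr5-negative cells. Itgb1, which encodes the CD29 of the gate, was at -0.24 in Lgr5-positive cells and -0.40 in Lgr5-negative cells. Lgr5 was at 4.87 in Lgr5-positive cells and 3.40 in Lgr5-negative cells, and was well above background on all 6 arrays. Its difference was 1.47, with 1.40, 1.31 and 1.70 in pairs 1 to 3. Median Cy5 signal was 137 to 169 on Lgr5-positive arrays, against 200 to 278 on Lgr5-negative arrays, over a median background of 64 to 76. Arrays with the same replicate number deviated together from their group means, so pairs by number are shown beside group means. All 6 arrays shared 1 slide, where every Lgr5-positive array came a column before its same-numbered Lgr5-negative array. Column and group therefore cannot be told apart.

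Ly6c1 and Ly6c2 encode the Ly6C antigen of monocytes, some T cells and some endothelium, and lie close to each other on chromosome 15. Only Ly6c1 has probes here, so the listed promoters of both genes are shown to let their likeness be seen. They are the 250 bases before the most upstream listed start, from RefSeq on GRCm38.p6, 5′ to 3′ on the minus strand. Ly6c1 lies at chr15:75048838-75049087 and Ly6c2 at chr15:75111972-75112221. Capitals mark runs of 10 or more bases that are identical in a global alignment of both sequences.
Ly6c1: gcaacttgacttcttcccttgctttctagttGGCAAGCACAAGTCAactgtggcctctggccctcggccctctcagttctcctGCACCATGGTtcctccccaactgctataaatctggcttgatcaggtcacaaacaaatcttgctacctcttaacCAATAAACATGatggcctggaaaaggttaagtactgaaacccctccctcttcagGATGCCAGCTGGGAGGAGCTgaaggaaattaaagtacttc
Ly6c2: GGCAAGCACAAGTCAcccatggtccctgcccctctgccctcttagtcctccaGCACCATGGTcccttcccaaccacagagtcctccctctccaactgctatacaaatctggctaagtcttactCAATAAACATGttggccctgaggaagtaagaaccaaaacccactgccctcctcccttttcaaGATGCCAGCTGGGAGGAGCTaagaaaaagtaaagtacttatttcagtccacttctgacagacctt
Of 216 bases aligned without a gap, 164 were identical (75.9%), and 57.7% of all alignment columns, gaps included, were identical. The longest shared run, 20 bases, lay close to the start of transcription in both. The interferon-gamma element GAS (TTCNNNGAA) and the interferon-stimulated response element (ISRE), searched on both strands, had 0 matches in either window. Among all 32851 listed promoters cut to the same length, 7.02% held the first and 2.98% the second. These promoters were listed for only 2 of the members. As background, the Ly6c1 and Ly6c2 transcripts are known as close copies. Whether a Ly6c1 probe also reads Ly6c2 was not tested, and the copy behind the Ly6c1 values is uncertain.

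Ly6a was lower in Lgr5-positive cells on its single probe. Its log2 ratios were -0.74, -0.47 and -1.41 in Lgr5-positive replicates 1 to 3, against 0.74, 0.39 and 1.14 in Lgr5-negative replicates 1 to 3. The groups did not overlap, and the log2 ratio was below 0 on all 3 Lgr5-positive arrays and above 0 on all 3 Lgr5-negative arrays. These signs are relative to the loess trend. Before normalization the Cy5 signal on the Lgr5-negative array of replicate 1 was 2230, below its Cy3 signal of 2872.5. The means were -0.87 ± 0.48 in Lgr5-positive cells and 0.76 ± 0.37 in Lgr5-negative cells (SD, n = 3 each), a difference of -1.63 (SE 0.35), or 3.10-fold lower. Pair 3 differed most and pair 2 least, with folds of 2.80, 1.82 and 5.85 in pairs 1 to 3. In bulk RNA of this kind, fewer cells that carry a transcript and less of it per cell cannot be told apart.

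Ly6c1 followed on both of its probes. The brighter probe, designed on NM_001252055, had log2 ratios of -0.14, 0.47 and -0.52 in Lgr5-positive replicates 1 to 3, against 1.41, 1.24 and 1.86 in Lgr5-negative replicates 1 to 3. Again the groups lay apart, and replicate 3 held both the lowest positive and the highest negative array. Means were -0.07 ± 0.50 and 1.50 ± 0.32 in Lgr5-positive and Lgr5-negative cells (SD, n = 3 each), a difference of -1.57 (SE 0.34), or 2.97-fold lower. The dimmer probe, designed on NM_001252058, gave 0.50, 1.00 and -0.05 in Lgr5-positive cells, against 1.65, 1.44 and 1.66 in Lgr5-negative cells. Its difference was smaller, -1.10 (SE 0.31), but it ordered the pairs as the brighter probe did, at -1.15, -0.44 and -1.71 against -1.56, -0.77 and -2.38. Both probes also ordered the pairs as Ly6a did.

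Ly6d, which marks lymphoid progenitors committed to the B lineage and is also made in stratified epithelia, was lower in Lgr5-positive cells. Its log2 ratio was above 0 on all 6 arrays. Its log2 ratios were 3.67, 3.36 and 2.50 in Lgr5-positive replicates 1 to 3, against 5.39, 4.14 and 4.08 in Lgr5-negative replicates 1 to 3. The groups did not overlap, and the Lgr5-negative array of replicate 1 stood above the other two. Means were 3.18 ± 0.61 in Lgr5-positive cells and 4.54 ± 0.74 in Lgr5-negative cells (SD, n = 3 each), a difference of -1.36 (SE 0.55), or 2.57-fold lower. The order of pairs was not that of Ly6a and Ly6c1, since pair 1 differed most (-1.72), then pair 3 (-1.58) and pair 2 (-0.78).

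The signals before correction show where the Ly6d value is least certain. Its Cy5 signal was 3043, 3916 and 1971 on Lgr5-positive arrays, against 28558, 16596 and 13997 on Lgr5-negative arrays. Its Cy3 signal, which should come from the same reference RNA on every array, was 811, 763 and 761 on Lgr5-positive arrays, against 1351, 1073 and 984 on Lgr5-negative arrays. Both the Cy5 and the Cy3 signal were thus higher on all 3 Lgr5-negative arrays than on any Lgr5-positive array, and a higher Cy3 signal makes the ratio smaller. In the Cy5 channel alone the Ly6d difference was -1.98. The part of the Cy3 signal in the difference was not tested. For Ly6a the Cy3 signal lay between 2924 and 3319 on Lgr5-positive arrays, against 2559 to 2979 on Lgr5-negative arrays, while its Cy5 signal was 586, 1197 and 499, against 2230, 3316 and 4717.

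**Figure D1:**
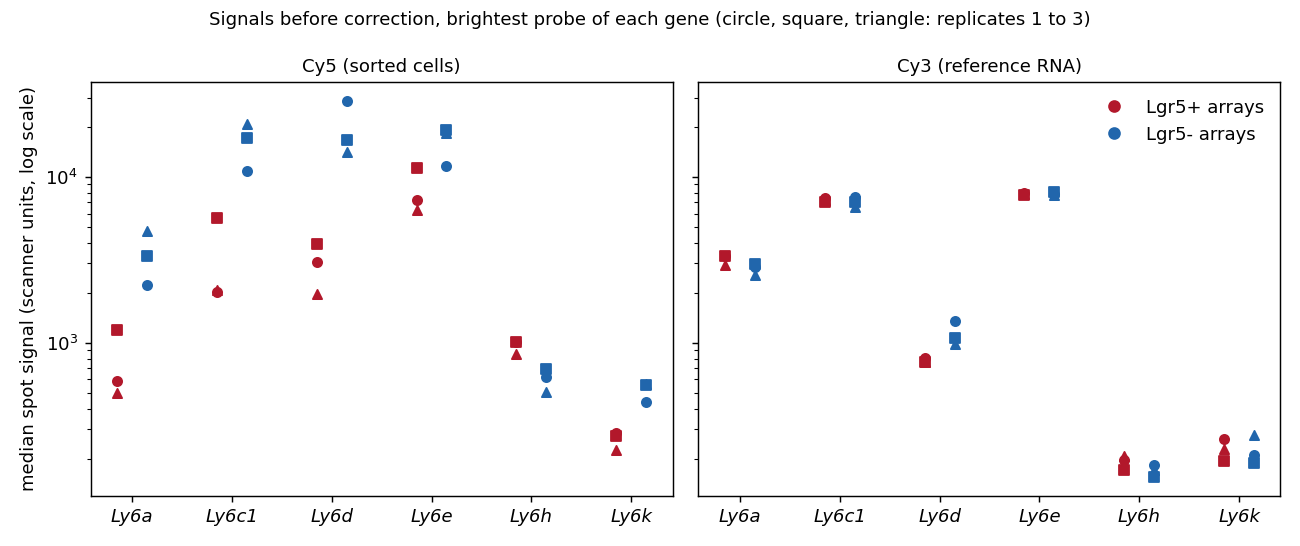
Median spot signal in scanner units on a log axis for the brightest probe of each of 6 Ly6 genes, in Cy5 (sorted cells, left) and Cy3 (reference RNA, right), 1 point per array, Lgr5-positive arrays in red and Lgr5-negative arrays in blue. Before normalization the Cy5 signals of the groups do not overlap for any of the 6 genes, with Ly6h alone higher on Lgr5-positive arrays. The median Cy5 signal of all probes was itself 137 to 169 on Lgr5-positive arrays, against 200 to 278 on Lgr5-negative arrays. The share of all genes without such overlap was not counted, so nothing is read from the lack of overlap before normalization. After normalization Ly6e and Ly6k overlap. The Cy3 signals overlap for all but Ly6d, at 761 to 811 on Lgr5-positive arrays against 984 to 1351 on Lgr5-negative arrays.

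Ly6e, also called Sca-2 or TSA-1, a thymocyte antigen that modulates virus entry, showed little difference. Its log2 ratios were 1.45, 1.20 and 0.91 in Lgr5-positive cells, against 1.44, 1.16 and 1.43 in Lgr5-negative cells. The groups overlapped, and pairs 1 and 2 were nearly level, at 0.01 and 0.05, while pair 3 was at -0.52. The difference of means was -0.15 (SE 0.18), within the spread between arrays. Without pair 3 it was 0.03, on the other side of 0.

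Ly6k, which in mouse is made mainly in testis and is needed for sperm function, was read by a dim probe. Its Cy5 signal was 285, 272 and 226 on Lgr5-positive arrays, against 440, 557 and 559 on Lgr5-negative arrays. The log2 ratios were 0.76, 0.69 and 0.33 in Lgr5-positive cells and 1.13, 1.34 and 0.70 in Lgr5-negative cells. These overlapped between groups, because replicate 3 was the lowest array in each, yet every pair was lower, by -0.37, -0.66 and -0.37. The difference of means was -0.46 (SE 0.23, from the spread within groups). With the Cy5 channel alone pair 1 was at 0.02, so the direction did not hold in every pair there.

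Ly6h was the member that went the other way. In mouse it is found mainly in brain, where it binds nicotinic acetylcholine receptors. On the brighter probe the log2 ratios were 3.39, 3.09 and 2.62 in Lgr5-positive replicates 1 to 3, against 1.91, 1.96 and 1.21 in Lgr5-negative replicates 1 to 3. All 3 Lgr5-positive arrays lay above all 3 Lgr5-negative arrays. Means were 3.04 ± 0.39 in Lgr5-positive cells and 1.70 ± 0.42 in Lgr5-negative cells (SD, n = 3 each), a difference of 1.34 (SE 0.33), or 2.53-fold higher. Its pairs were the most alike of the members that lay apart, at 1.48, 1.13 and 1.41.

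The second Ly6h probe was designed on the same transcript, NM_011837, and had a dimmer signal. Its Cy5 signal was 238, 191 and 168 on Lgr5-positive arrays, against 196, 236 and 218 on Lgr5-negative arrays, so before normalization it was lower in pairs 2 and 3. Its log2 ratios were 1.62, 0.90 and 0.67 in Lgr5-positive cells and 0.71, 0.58 and 0.24 in Lgr5-negative cells. Every pair was higher (0.91, 0.32 and 0.43), but the groups overlapped and the difference of means was 0.55 (SE 0.32). Without Lgr5-positive replicate 1 it was 0.27, and with the scanner's own log ratios it was 1.09. The size of the Ly6h difference therefore rests on the brighter probe, where it was 1.10 to 1.55 when single arrays or pairs were left out.

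**Figure D2:**
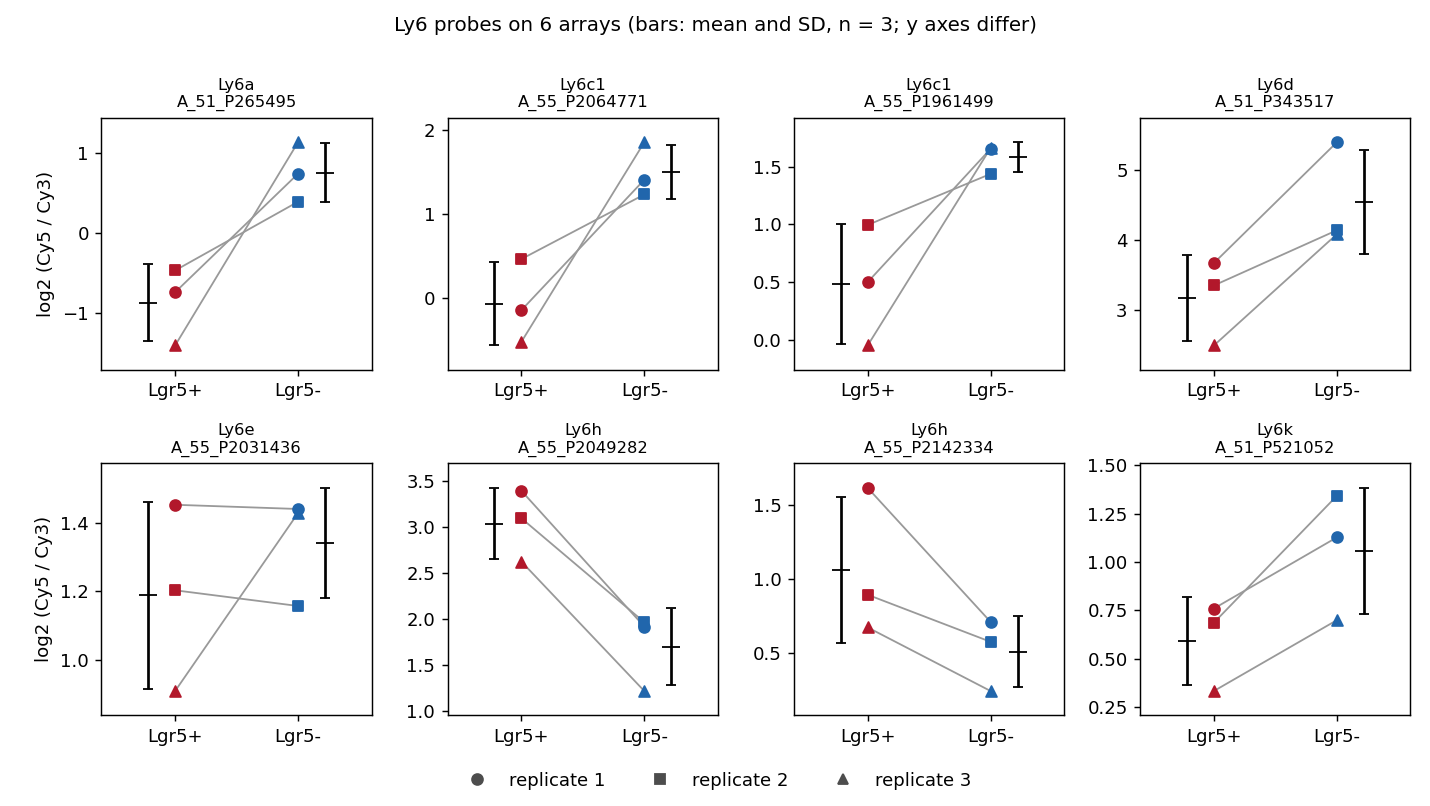
Log2 (Cy5/Cy3) of the 8 Ly6 probes on each of the 6 arrays, Lgr5-positive (red) left of Lgr5-negative (blue), with arrays of the same replicate number joined and the mean and SD of 3 arrays drawn beside them (y axes differ between panels). Ly6a, both Ly6c1 probes and Ly6d are lower on every Lgr5-positive array, the brighter Ly6h probe is higher on every one, and Ly6e, Ly6k and the dimmer Ly6h probe overlap.

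Counted by gene on the brightest probe, 5 of the 6 measured members had a difference below 0, and their median was -0.91, against a median of 0.01 and 48% below 0 over the 15680 genes tested. Lower in every pair were 4 members, Ly6a, Ly6c1, Ly6d and Ly6k, against 21.8% of all genes tested, and 1, Ly6h, was higher in every pair, against 22.5%. Groups did not overlap for 3 members that were lower (8.14% of all genes) and 1 that was higher (4.06%). Because the members were chosen with this contrast in view, nothing is read from these counts.

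The other Ly6/uPAR genes show how the rest of the family stood on the same arrays. Of 36 listed, 31 had a probe and 24 could be tested. By limma with the group as the only term 0 of 24 changed at an adjusted p of 0.05 (2 at an unadjusted p under 0.05, where 8.2% of all genes were). Of all genes 0.612% passed in that fit, 0.587% lower and 0.0255% higher. With the replicate number as a block 2 fell and 0 rose, where 7.72% of all genes passed, 5.61% lower and 2.1% higher. In 22 of the 24 the difference lay within 0.5 of 0, and the median was -0.04. Ly6f, a close relative of Ly6a and Ly6c, was at -0.65 ± 0.21 in Lgr5-positive cells and 1.13 ± 0.63 in Lgr5-negative cells (SD, n = 3 each). Its difference was -1.79, lower in 3 of 3 pairs (-1.22, -1.75 and -2.39), with an adjusted p of 0.085 in limma with the group alone and 0.0052 with the block. The Ly6f probe was well above background on 2 of the 3 Lgr5-positive arrays, and as with Ly6c1 the copy it reads is uncertain.

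Ly6g6e, from the Ly6 genes on chromosome 17, was at 0.37 ± 0.14 in Lgr5-positive cells and 1.08 ± 0.11 in Lgr5-negative cells (SD, n = 3 each). It was lower by about the same amount in each pair (-0.68, -0.73 and -0.73), with an adjusted p of 0.173 in limma with the group alone and 0.015 with the block. Only 1 of the 3 Lgr5-positive arrays was well above background for it. The next lowest p with the group alone belonged to Lypd3, a protein of stratified epithelium, at 0.49, and to Gml, at 0.28. Neither passed with or without the block.

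The 7 members and other family genes, 21 in all, lie on chromosome 15, and 16 of them were tested, described here in the order of the GRCm38.p6 annotation. Ly6d, at -1.36, was next to Ly6k, at -0.46, among the tested genes. Ly6e (-0.15) and Ly6i (-0.15), a further relative of Ly6a and Ly6c that was picked after its values were seen, lay just before Ly6a (-1.63) and Ly6c1 (-1.57). Ly6f (-1.79) came next among the tested genes, and then Ly6h (1.34). Gpihbp1, which carries lipoprotein lipase to the inner wall of capillaries and was also picked after its values were seen, followed Ly6h and was at -0.12, with 1.71 ± 0.55 in Lgr5-positive cells and 1.83 ± 0.42 in Lgr5-negative cells (SD, n = 3 each). Of the 10 tested genes there that are no member, 9 lay within 0.5 of 0.

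**Figure D3:**
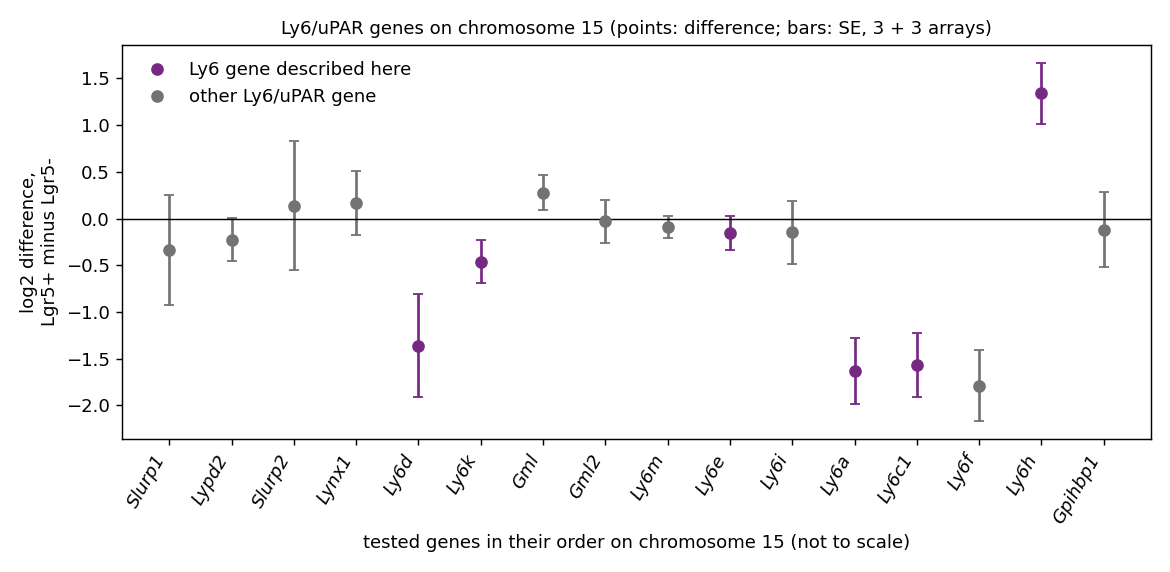
Log2 difference, Lgr5-positive minus Lgr5-negative, of 16 tested Ly6/uPAR genes in their order on chromosome 15 (positions not to scale), with the SE from 3 arrays per group; the Ly6 genes described here are purple and other family genes grey. Ly6a, Ly6c1 and Ly6f lie together between -1.79 and -1.57, Ly6d is at -1.36, Ly6h at 1.34, and most others are close to 0.

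Genes that build and remodel the GPI anchor, which most of these proteins need, were not called. Of 28 listed, 21 were tested by limma, and 0 changed with the group alone or with the block (0 at an unadjusted p under 0.05 with the group alone), with a median of 0.04. The lowest p with the group alone belonged to Pigx, a subunit of a mannosyltransferase of the pathway, and Pgap3, which remodels the anchor's lipid. They were at 0.32 and 0.40 (adjusted p = 0.213 and 0.094 with the block). With the block Pign, at 0.33, had a lower p than Pigx (adjusted p = 0.154).

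Markers of other cells moved on the same arrays, and their part in the Ly6 differences was not tested. The lists were chosen with earlier results of these data known, so their calls are given as a description. Of 10 blood endothelium markers 3 fell with the group alone and 7 with the block, with a list median of -1.84. Their mean log2 ratio was 1.33 to 2.43 on Lgr5-positive arrays, against 3.25 to 3.76 on Lgr5-negative arrays, with Egfl7 at -3.30 and Plvap at -2.41 (limma adjusted p = 0.029 and 0.035). Tie1 was also called in both fits, but 0 of 3 Lgr5-positive arrays were well above background for it. Tie1 thus passed the filter on dim probes only through its Lgr5-negative arrays. The difference was below 0 for 9 of the 10, and Kdr was at 0.18 (0.13, 0.36 and 0.04 in pairs 1 to 3). The endothelial medians in pairs 1 to 3 were -1.95, -1.17 and -2.44, beside -1.49, -0.86 and -2.55 for Ly6a and -1.56, -0.77 and -2.38 for Ly6c1. The pericyte list (-0.58, -0.54 and -0.61) and the luminal progenitor list (-0.35, -0.25 and -0.50) had the same order of pairs. Above 0, the basal list (0.51, 0.17 and 0.75) and Lgr5 (1.40, 1.31 and 1.70) also had pair 3 farthest from 0 and pair 2 nearest. The order is therefore not particular to endothelial genes.

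Of 8 markers of hormone-sensing luminal cells, the class that carries Sca-1 among luminal cells, 0 changed with the group alone by limma (6 at an unadjusted p under 0.05) and 6 fell with the block. Tnfsf11 was among the 6 that fell, but 0 of 3 Lgr5-positive arrays were well above background for it. Tnfsf11 thus passed the filter on dim probes only through its Lgr5-negative arrays. The mean log2 ratio of the list was 0.44 to 0.92 on Lgr5-positive arrays, against 1.64 to 2.12 on Lgr5-negative arrays. The medians in pairs 1 to 3 were -1.23, -1.24 and -0.87, an order that differs from that of Ly6a. Foxa1 was at -0.98 and Areg at -2.25, and both fell with the block (adjusted p = 0.0089 and 0.0021).

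Of 11 interferon-stimulated genes 0 passed with the group alone (7 at an unadjusted p under 0.05) and 9 fell with the block, with medians of -0.85, -0.90 and -1.34 in pairs 1 to 3. Their mean log2 ratio was -2.01 to -1.56 on Lgr5-positive arrays, against -1.24 to -0.42 on Lgr5-negative arrays. Bst2, which tethers virions, and Oas1a, an RNA-sensing synthetase, were at -1.09 each (adjusted p = 0.0052 each with the block). Bst2 was at -0.87, -1.13 and -1.27 in pairs 1 to 3, beside 0.01, 0.05 and -0.52 for Ly6e.

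In the remaining marker lists some members moved with the block. With the group alone 0 members passed by limma in the fibroblast (7 tested), pericyte (5), leukocyte (9), luminal progenitor (6), epidermis and hair follicle (6) and basal (8) lists, where 3, 2, 1, 3, 3 and 3 had an unadjusted p under 0.05. With the block 3 fibroblast markers fell and 1 rose, 2 pericyte markers fell, 1 leukocyte marker fell, 2 luminal progenitor markers fell and 1 rose, 3 epidermal markers fell and 3 basal markers rose. Dcn and Pi16 were at -1.37 and -1.26 among fibroblast genes, and Fbln1, the 1 that rose, was at 0.99. Pdgfra, Col1a1 and Col1a2 of that list were at -0.34, -0.20 and -0.22 and were not called. Among pericyte genes Notch3 was at -0.89 (called with the block) and Abcc9 at -0.99 (not called, adjusted p = 0.0705 with the block). Cd74 was at -1.04 among leukocyte genes. Cd34 and Krt6a were at -2.58 and -1.91 in the epidermis and hair follicle list. They ordered the pairs differently, Cd34 at -2.03, -2.21 and -3.49 and Krt6a at -2.52, -2.34 and -0.86 in pairs 1 to 3. Krt10, Lor and Krt15 of that list were at -2.03, -0.24 and 0.23 and were not called. Cd14 and Lcn2 were at -1.28 and 0.62 in the progenitor list, and Oxtr and Krt17 at 0.76 and 0.62 in the basal list. The leukocyte list, which bears on Ly6C as a monocyte antigen, had mean log2 ratios of -0.17 to 0.45 on Lgr5-positive arrays, against -0.24 to 0.39 on Lgr5-negative arrays. The fibroblast means were -0.86 to -0.64 against -0.57 to -0.12, the pericyte means -0.22 to 0.17 against 0.44 to 0.84, the progenitor means 1.19 to 1.71 against 1.32 to 2.13, and the epidermal means 0.55 to 0.93 against 1.18 to 2.44, Lgr5-positive against Lgr5-negative arrays in each case. The list medians of the differences were -0.34 for fibroblast, -0.58 for pericyte, 0.13 for leukocyte, -0.19 for luminal progenitor, -1.45 for epidermal and 0.42 for basal genes. The epidermal list, which bears on Ly6d as a gene of stratified epithelia, had medians of -1.56, -1.89 and -0.14 in pairs 1 to 3, beside -1.72, -0.78 and -1.58 for Ly6d.

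**Figure D4:**
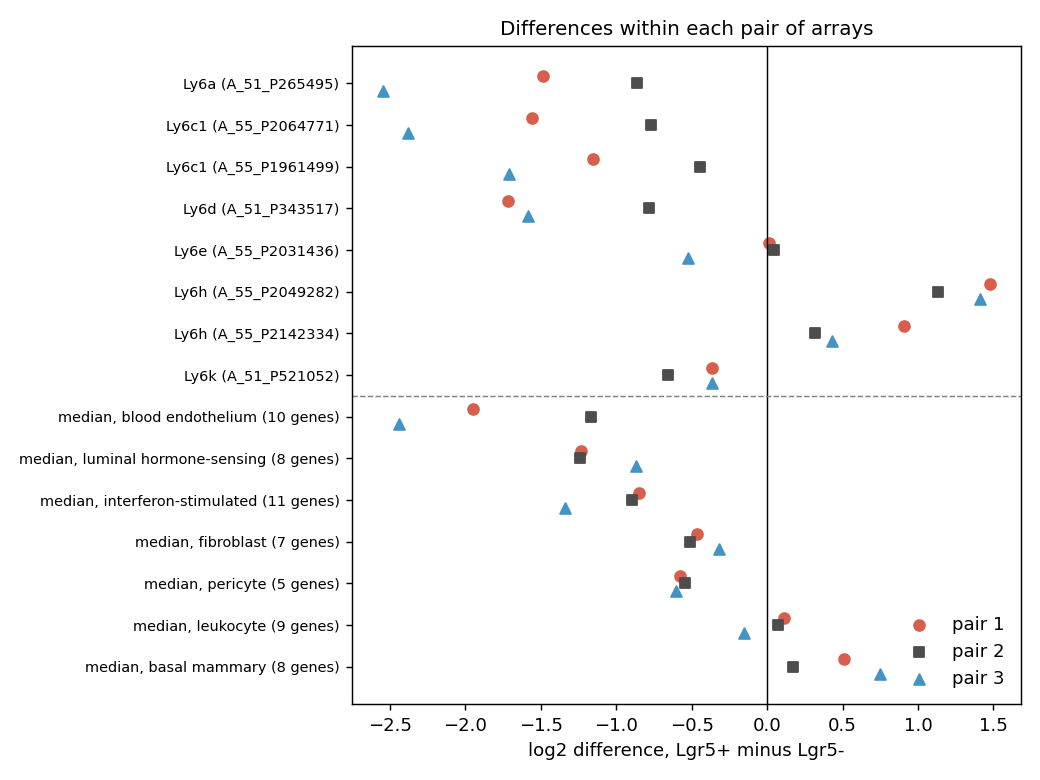
Log2 difference, Lgr5-positive minus Lgr5-negative, within each pair of same-numbered arrays, for the 8 Ly6 probes (above the dashed line) and as the median of 7 gene lists (below it). Ly6a, both Ly6c1 probes and the endothelial list have pair 3 lowest and pair 2 nearest 0, an order that the pericyte list shares, while Ly6h is above 0 in all 3 pairs. The basal list, above 0, also has pair 3 farthest from 0 and pair 2 nearest.

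Other genes followed single members closely over the 6 arrays, which describes these arrays only, since the 6 points fall into 2 groups and share slide and dye. By Pearson correlation of log2 ratios, the 3 genes most like Ly6a were Sigirr, Rasgrp2 and Gstt2 (r = 0.995, 0.992 and 0.991), and 110 of the 15680 genes lay above 0.95. For Ly6c1 they were Gm1987, Gstt2 and Rasa4 (0.994, 0.992 and 0.991). Gstt2, a glutathione transferase at -1.11, was thus named for both. Ly6d was followed by Gipc1, Lims2 and Mrpl33 (0.994, 0.993 and 0.990), Ly6e by Rgs14, Crlf2 and Pla2g6 (0.996, 0.988 and 0.984), and Ly6k by D6Wsu163e, Sema3b and 2200002D01Rik (0.994, 0.987 and 0.986). The genes most like Ly6h were Gm10532, Zcchc18 and Osr1 (0.999, 0.995 and 0.990), with smaller differences of 0.26, 0.42 and 0.74, against 1.34 for Ly6h.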

How the data were processed

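The authors deposited 1 Agilent Feature Extraction file per array (version 11.0 per the submitters' processing notes, 11.0.1.1 per the file headers), with median spot and background intensity in both dyes. Per the file headers the files also hold the scanner's log10 ratio, Cy5 over Cy3. A deposited series table holds log2 ratios centred on each probe's median over the arrays, as the values show, with the direction of the scanner's ratios (r = 0.920 to 0.950 after the same centring) and column medians of -0.0016 to 0.03 and -0.05 to 0.0064 in Lgr5-positive and Lgr5-negative arrays. On each array 81.6% to 83.2% of its values lay within 0.001 of the scanner's ratios after the same centring. How the other values were made is not given in the sources used here.

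Median signals were corrected with normexp (offset 50) and normalized by loess within arrays in limma 3.58.1 (R 4.3.3), control and outlier spots at weight 0. Of 55681 probes, 27509 received 1 symbol through RefSeq transcripts (GRCm38.p6, for names and gene order, since the arrays are annotated on mm9). The brightest probe with Cy5 well above background on at least 3 arrays stood for a gene, which gave 15680 genes. The fit had the group as its only term, two-sided, with Benjamini-Hochberg adjustment over all genes tested. Same-numbered arrays deviated together (r = 0.810, 0.819 and 0.675 across genes), so the fit with the number as a block is given where it changes a call. These arrays also lay side by side on the slide, so a shared sample origin and a shared position cannot be told apart. The labels do not say what the numbers share. SEs of member differences come from the spread of 3 arrays per group. The fitting code was tested on simulated data. Promoters were aligned with Biopython 1.88. The members and lists were chosen with earlier results of these data known. Named genes are all members, up to 6 family genes past the test or else the 4 with the lowest p, in each other list up to 2 past it or else the 2 with the lowest p, and the 3 genes most correlated with each member; 1 gene that this rule names is not reported here. The number of arrays, 3 per group, limits the precision.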

Additional observations from a re-analysis of the deposited data

How the results depend on the processing

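With the group alone 96 genes passed, and the count was 9 under median centring, 44 where all 6 arrays had to be well above background, 312 with array weights, 1210 with the replicate block, 0 to 371 when 1 array was left out and 326 (without pair 2) to 1397 (without pair 1) in the blocked fit, with 854 without pair 3. The unblocked count was 0 on leaving out Lgr5-positive replicate 1 or Lgr5-positive replicate 3, 5 without Lgr5-negative replicate 2, 21 without Lgr5-negative replicate 3 and 371 without Lgr5-negative replicate 1. Among other Ly6/uPAR genes 0 passed with the group alone, 1 (Ly6f) with array weights, 2 (Ly6f and Ly6g6e) with the replicate block, and 0 to 3 when arrays or pairs were left out. Ly6f also passed without Lgr5-negative replicate 1, and Lypd3 rose in the blocked fit without pair 1. In the blocked fit 0 passed without pair 2. Lower in every pair were 3 to 5 members over the settings: 5 with median centring, which added Ly6e, and 3 with Cy5 alone, where Ly6k left. Median centring shifted the median of all genes to -0.29; relative to that, Ly6a was at -1.75, Ly6c1 at -1.85, Ly6d at -1.55, Ly6e at -0.34, Ly6h at 1.14 and Ly6k at -0.35. With no array left out, over 7 settings, the brightest probes kept their sign, from -2.04 to -1.50 for Ly6a, -2.14 to -1.48 for Ly6c1, -1.98 to -1.15 for Ly6d, -0.63 to -0.11 for Ly6e, 0.85 to 1.49 for Ly6h and -0.64 to -0.35 for Ly6k. Among these settings, the scanner's log ratios and the deposited series table gave nearly the same member differences. With single arrays or pairs left out Ly6e ran from -0.29 to 0.029, where its sign changed in the blocked fit without pair 3, Ly6a from -2.02 to -1.17 and Ly6d from -1.65 to -0.93. The causes were not tested. Signal over background limits Ly6k and the dimmer Ly6h probe most.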
